A study of Mus musculus with 8 samples.

Results

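The spindle assembly checkpoint genes were followed in fully grown germinal vesicle (GV) oocytes of the mouse that lack CNOT7 and CNOT8. These are alternative deadenylase subunits of the CCR4-NOT complex, which shortens the poly(A) tails of mRNAs. Each complex holds either CNOT7 or CNOT8, beside CNOT6 or CNOT6L. The 8 genes Mad1l1, Mad2l1, Bub1, Bub1b, Bub3, Ttk, Zw10 and Zwilch were taken by their gene names from a table of 46078 genes. The rule uses no measured value, although the genes were chosen with earlier results of these data known. All 8 passed the filter on low counts.

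RNA-seq libraries were compared between 4 control samples of Zp3-Cre oocytes and 4 samples of CNOT7&8 KO oocytes. The KO animals carried floxed alleles of Cnot7 and Cnot8 together with the Zp3-Cre transgene, which the controls carried too. The Zp3 promoter drives Cre in growing oocytes, so the deletion takes place after oocytes have formed and the somatic cells of the ovary keep both genes. The females had a C57BL/6J background and an age of 4 weeks. They were primed with gonadotropin, and 100 GV oocytes were pooled for each library. The sources used here do not say how many animals gave a library, so p-values measure the spread between pools of oocytes.

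The checkpoint delays anaphase until every kinetochore, the protein assembly that joins a chromosome to the spindle, is held by microtubules. Ttk (also called Mps1), a kinase, starts the signal at free kinetochores, where the kinase Bub1 and its partner Bub3 are then recruited. There Mad1l1 (MAD1) holds Mad2l1 (MAD2), and Mad2l1 is passed on to a soluble complex with Bub1b (BUBR1), Bub3 and Cdc20 that blocks the anaphase-promoting complex. Zw10 and Zwilch belong to the RZZ complex, with the product of Kntc1, which helps to keep MAD1 at kinetochores. Oocytes use this machinery in the first meiotic division, which they enter with mRNAs stored during growth. The study asked how mRNA levels, protein levels and translation change when both deadenylases are missing. It reported that most genes with raised protein had unchanged or lower mRNA levels. Only mRNA levels are followed here. The study also treated oocytes with an inhibitor of Ttk, in experiments not analysed here.

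Many stored mRNAs carry a cytoplasmic polyadenylation element (CPE), the letters TTTTAT in the DNA alphabet, in the 3′UTR. The sites of Ttk and Bub1b are printed first, since these genes held a CPE in every annotated 3′UTR, and a site each of Zwilch, Bub3 and Mad2l1 follows for comparison. Each line is a 30-base window of the mRNA strand on GRCm38, and capitals mark the CPE.
Ttk, chr9:83872167-83872172, plus strand: acctcacctggaTTTTATcagttaaaaaaa
Ttk, chr9:83872282-83872287, plus strand: gttgtgcttttcTTTTATgcttttctgtaa
Bub1b, chr2:118641533-118641538, plus strand: tctcttttgtaaTTTTATaacatgtactct
Bub1b, chr2:118641565-118641570, plus strand: tttcactgtgtaTTTTATaataaaatagtt
Zwilch, chr9:64137518-64137523, minus strand: atttccctggtaTTTTATtaagcttgagta
Bub3, chr7:131570801-131570806, plus strand: gagaagtcttatTTTTATtttgtaagattt
Mad2l1, chr6:66546734-66546739, plus strand: ttgagaactataTTTTATaagaggctaaaa
The second site of Bub1b runs without a gap into the polyadenylation signal AATAAA and ends 21 bases before the annotated end of the mRNA. The second site of Ttk ends 102 bases before the end of its mRNA.

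Read counts are given as CPM, counts per 1000000 counts of a library, with library sizes adjusted by TMM, a scaling built on the assumption that most genes do not change. Library totals ranged from 8639444 to 44092144 counts. A total of 3 counts was the smallest signal taken as detectable. On library totals without TMM, it corresponded to 0.068 CPM in the deepest and 0.347 CPM in the shallowest library, for counting error only. Cnot8 went from a mean of 168 CPM ± 20.01 to 35.2 CPM ± 1.40 (SD, n = 4 each), a log2 fold change of -2.25. Its adjusted p was 8.2e-08 in the quasi-likelihood test of edgeR, with p-values adjusted by the Benjamini-Hochberg method over all tested genes. Cnot7 went from 933 CPM ± 77.3 to 719 CPM ± 70.8, a log2 fold change of -0.38 with an adjusted p of 0.0105 in the same test. Cnot7 mRNA was thus present in all KO libraries at 622 CPM or more, and the counts do not show which part of the transcript the reads cover. At the protein level, the study reported by immunoblot that both CNOT7 and CNOT8 were depleted in KO oocytes. Under scaling by library size only, Cnot7 no longer passed, at -0.092 with an adjusted p of 0.385.

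Of the 8 checkpoint mRNAs, 7 fell in KO oocytes at an adjusted p of at most 0.05 and none rose, and the exception was Zw10. With library size only, 3 fell (Ttk, Mad2l1 and Zwilch). Ttk and Mad2l1 fell the most, to 48.3% and 50.2% of control, Zwilch fell to 57.6%, and Bub1b, Mad1l1, Bub1 and Bub3 fell to between 71.0% and 72.7%. Over all 19241 tested genes, 24.1% fell and 31.2% rose at that threshold. Most of the members are abundant mRNAs, 5 of them averaging 100 CPM or more, and of the 2414 genes at that level 55.2% fell and 8.37% rose. The median log2 fold change was -0.49 over the 8 members, 0.12 over all tested genes and -0.37 over the genes of at least 100 CPM. For most members the share among abundant mRNAs is thus the nearer background. Only Ttk also reached a 2-fold change, and no member was 2-fold higher. At the same adjusted p, 6.56% of all tested genes were at least 2-fold lower and 23.8% at least 2-fold higher, and 6.05% of the genes of at least 100 CPM were 2-fold lower. The control and KO libraries did not overlap for 6 members, all lower in KO, against 21.4% of tested genes lower without overlap (48.4% in either direction) and 50.9% of those of at least 100 CPM. The libraries hold RNA of pooled oocytes at equal scaled depth. From these counts, a lower level per oocyte and a rise of other RNAs thus cannot be told apart. For Bub1b, the study measured mRNA by RT-qPCR relative to spike-in RNA and reported no significant difference between control and KO.

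**Figure D1:**
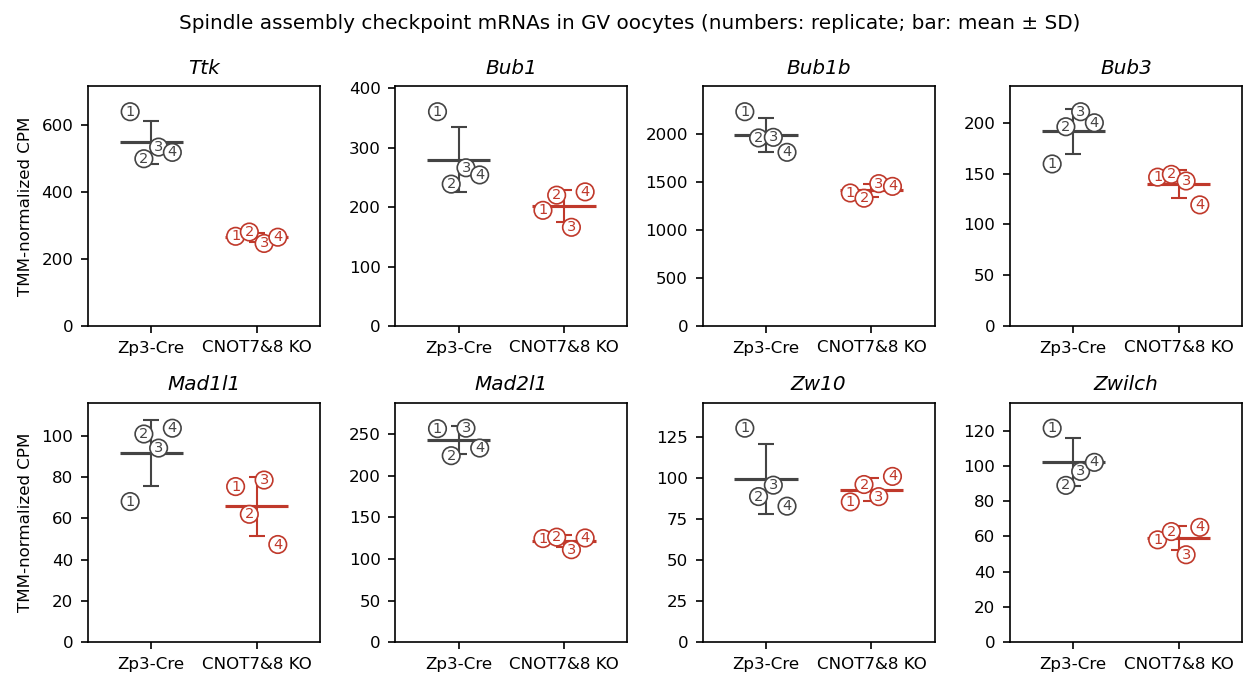
TMM-normalized CPM (y axis, linear and from 0) of each checkpoint mRNA in the 4 Zp3-Cre control and 4 CNOT7&8 KO libraries, with circles numbered by replicate, lines at the mean and bars of 1 SD. The KO circles lie below all control circles for 6 genes, mix with them for Zw10, and overlap with control replicate 1 for Mad1l1.

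Ttk, at chr9:83834689-83872389 on the plus strand, encodes the kinase at the head of the pathway. Its control libraries held 641, 500.4, 535 and 519 CPM and its KO libraries 268, 281, 247 and 265 CPM. All KO libraries lay far below all control libraries and close to each other. The log2 fold change was -1.05 (SE 0.11, 95% interval -1.28 to -0.82), with an adjusted p of 8.63e-06 in the quasi-likelihood test of edgeR. Ttk kept an adjusted p under the threshold in all 18 alternatives, with log2 fold changes from -1.09 to -0.76, but its place past the 2-fold line was lost with library size only, upper quartile scaling, TMM on genes of at least 10 CPM, a stricter filter, and without control replicate 1 or KO replicate 3.

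Bub1, at chr2:127801122-127831865 on the minus strand, encodes the kinase that marks centromeres and docks the later checkpoint proteins. Its mRNA measured 361, 239, 266 and 254 CPM in control libraries and 195, 220.1, 166 and 226 CPM in KO libraries. The groups did not overlap, although the highest KO library came near the lowest control, and control replicate 1 lay well above the other controls. Bub1 fell by 0.47 on the log2 scale (SE 0.15), with an adjusted p of 0.0158 in edgeR's test.

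Bub1b, at chr2:118598211-118641591 on the plus strand, encodes BUBR1, the part of the checkpoint complex that blocks the anaphase-promoting complex. It was the most abundant member, with 2229, 1957, 1963 and 1807 CPM in control libraries and 1383, 1329, 1481 and 1452 CPM in KO libraries. Every KO library was lower than every control library. Its log2 fold change of -0.49 (SE 0.10) had an adjusted p of 0.00124 in edgeR's test. By immunoblot, the study found more BUBR1 protein in KO oocytes, while RT-qPCR showed no significant change of Bub1b mRNA. The study also reported a shift of this mRNA to heavier polysome fractions and a longer poly(A) tail. The read counts do not give the level of the protein.

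Bub3, at chr7:131560222-131571895 on the plus strand, encodes the adaptor that carries Bub1 and BUBR1 to kinetochores. Its levels were 159, 196, 211 and 200.03 CPM in control libraries and 146, 149, 143 and 119 CPM in KO libraries. The groups were separate but close, since control replicate 1 was the lowest control and stood near the KO libraries. Bub3 fell by 0.46 on the log2 scale (SE 0.12), with an adjusted p of 0.00607 in edgeR's test. With library size only, Bub1, Bub1b and Bub3 did not pass, with adjusted p of 0.234, 0.0520 and 0.248 in edgeR's test.

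Mad1l1, at chr5:140008689-140321552 on the minus strand, encodes the kinetochore receptor of MAD2. Its mRNA measured 68.1, 101, 94.0 and 104 CPM in control libraries and 75.4, 62.0, 78.5 and 47.3 CPM in KO libraries. The groups overlapped, because control replicate 1 lay under KO replicates 1 and 3. The log2 fold change of -0.48 (SE 0.18) passed narrowly in edgeR's test, with an adjusted p of 0.0353, whereas the two-sided exact permutation test over 70 assignments gave a p of 0.0857. Mad1l1 passed in 7 of 18 alternatives, and its values in them ran from -0.60 to -0.20. It failed with library size only (adjusted p of 0.387 in edgeR's test), upper quartile scaling (0.0831), TMM on genes of at least 10 CPM (0.330) and the stricter filter of at least 1 CPM in 4 libraries (0.0692). With a single library left out it passed only without control replicate 1 or KO replicate 3, and without KO replicate 4 it was at -0.34.

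Mad2l1, at chr6:66535390-66547220 on the plus strand, encodes the protein that is converted at kinetochores into an inhibitor of Cdc20. Control libraries held 257, 224, 257 and 233 CPM and KO libraries 125, 126, 111 and 125 CPM. The groups were far apart and the replicates of each lay close together. Its log2 fold change was -0.99 (SE 0.10, 95% interval -1.21 to -0.78), with an adjusted p of 7.78e-06 in edgeR's test, and it passed in all 18 alternatives, from -1.03 to -0.71.

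Zw10 and Zwilch encode subunits of the RZZ complex, and Zwilch alone passed the test. Zw10, at chr9:49055613-49078775 on the plus strand, measured 130.3, 88.7, 95.7 and 82.9 CPM in control libraries and 85.5, 96.1, 88.7 and 101 CPM in KO libraries. The groups overlapped. Control replicate 1 was the highest of the 8 libraries, and KO replicates 2 and 4 lay above the other 3 controls. The log2 fold change of Zw10 was -0.10 (95% interval -0.41 to 0.21, adjusted p of 0.576 in edgeR's test), and it turned to 0.19 with library size only, to 0.16 with TMM on genes of at least 10 CPM and to 0.059 without control replicate 1. Zwilch, at chr9:64137144-64173104 on the minus strand, measured 121, 88.9, 96.8 and 102 CPM in control libraries and 58.1, 62.8, 49.6 and 65.2 CPM in KO libraries. All KO libraries of Zwilch were lower than all controls. It fell by 0.80 on the log2 scale (SE 0.13, adjusted p of 0.000295 in edgeR's test) and passed in all 18 alternatives, from -0.86 to -0.51.

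**Figure D2:**
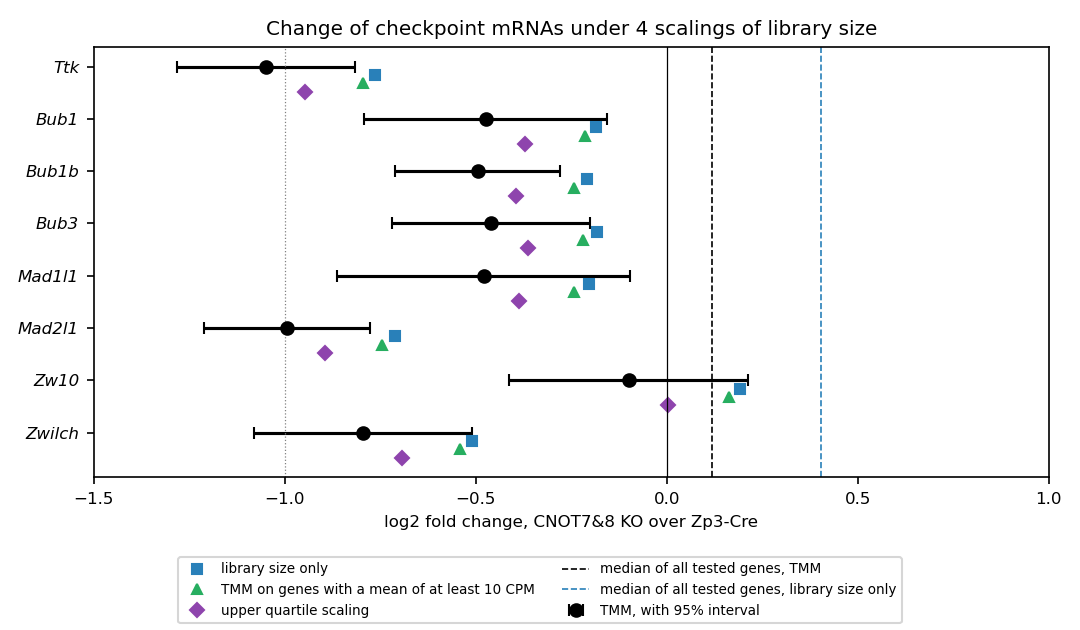
Log2 fold change of KO over control (x axis) for each member. Black points give the TMM scaling with its 95% interval, and coloured marks give library size only, TMM on genes of at least 10 CPM and upper quartile scaling. Dashed lines mark the median of all tested genes, 0.12 with TMM and 0.41 with library size only. All marks of 7 members are left of 0, and those of Zw10 fall on both sides.

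The choice of scaling moved all genes together. The median of all tested genes rose from 0.12 to 0.41 with library size only, while the median of the members went from -0.49 to -0.21. Relative to the median of all tested genes, the members stood at -0.60 with TMM and at -0.61 with library size only. These values must lie close, since a scaling shifts all genes by nearly the same amount. For most members the genes of at least 100 CPM are the nearer background, and their median with TMM was -0.37, closer to that of the members. The distance to the median of all tested genes depended on the filter, being -0.87 with no filter beyond 1 count and -0.41 with at least 1 CPM in 4 libraries. The members that fell numbered 4 with TMM on genes of at least 10 CPM. Ttk, Mad2l1 and Zwilch were the members that passed under all of these scalings.

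Ratios of the counts of members within a library do not depend on library scaling, and 6 ratios between binding partners or successive steps of the pathway were compared. Zw10 over Zwilch was 1.07, 0.998, 0.988 and 0.813 in control and 1.47, 1.53, 1.79 and 1.55 in KO libraries. All KO libraries were above all controls, and the log2 change was 0.71. Ttk over Bub1 was 1.78, 2.10, 2.01 and 2.04 in control and 1.38, 1.28, 1.49 and 1.18 in KO libraries, all KO values being lower, with a log2 change of -0.58. Bub1b over Mad2l1 was 8.69, 8.73, 7.63 and 7.74 in control and 11.1, 10.5, 13.3 and 11.6 in KO libraries, all KO values being higher, with a log2 change of 0.50. Each of these ratios had a two-sided exact permutation p of 0.0286, the smallest that 70 assignments allow, and 0.0571 after Benjamini-Hochberg adjustment over the 6 ratios, which is above 0.05. The ratios share genes, so they are not independent of each other.

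The ratios of Bub1 and Bub1b to their common partner Bub3 stayed close to control on average. Bub1 over Bub3 was 2.26, 1.22, 1.26 and 1.27 in control and 1.33, 1.48, 1.16 and 1.89 in KO libraries. Bub1b over Bub3 was 14.0, 9.98, 9.30 and 9.03 in control and 9.44, 8.91, 10.4 and 12.2 in KO libraries. The groups overlapped for both ratios, with exact permutation p of 0.971 and 0.857. Control replicate 1 was the highest library of both, and the lowest was a KO library, replicate 3 for Bub1 and replicate 2 for Bub1b. Mad1l1 over Mad2l1 was 0.265, 0.449, 0.365 and 0.444 in control and 0.605, 0.490, 0.705 and 0.378 in KO libraries. These groups overlapped through KO replicate 4, and the log2 change of 0.51 had an exact permutation p of 0.114.

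**Figure D3:**
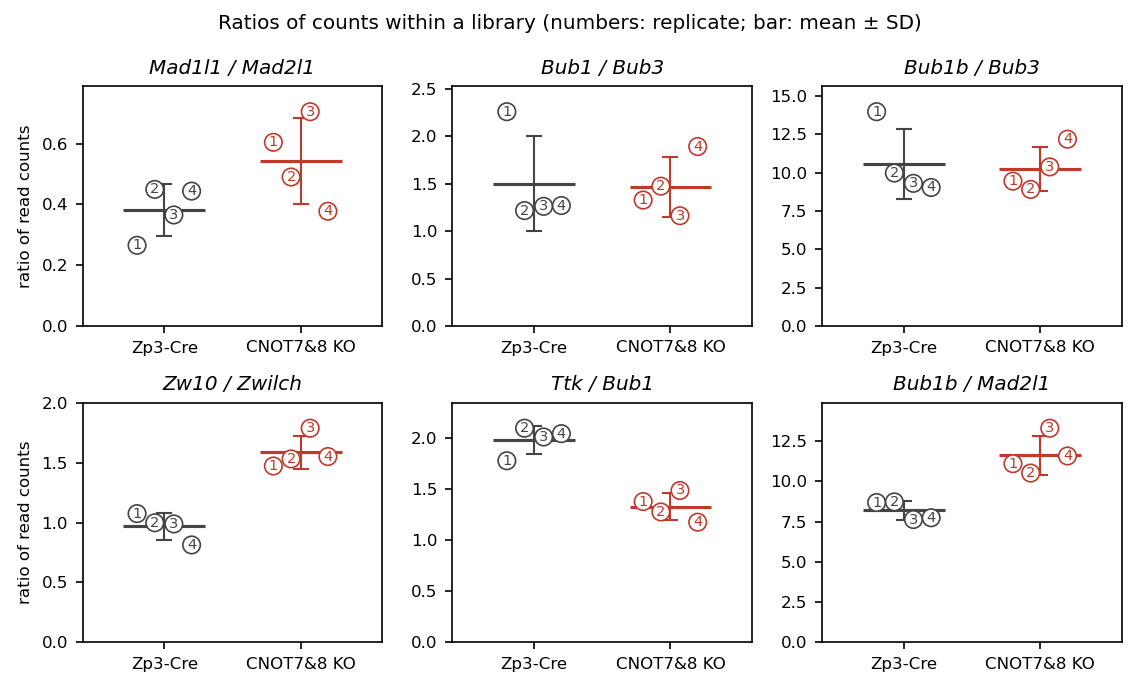
Ratio of the read counts of a pair of members within each library (y axis, linear and from 0), with circles numbered by replicate, lines at the mean and bars of 1 SD. KO and control circles are apart for Zw10/Zwilch, Ttk/Bub1 and Bub1b/Mad2l1, and overlap for the other ratios.

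Levels of different genes were compared per kilobase of the longest annotated transcript, scaled to the same sum in each library (the TPM scale) and without TMM. On this per-length scale the control levels were 1226 ± 142 for Bub1b, 433 ± 61.9 for Ttk, 185 ± 42.0 for Bub1 and 108 ± 9.93 for Bub3 (SD, n = 4). The ranges of these neighbours in the order did not overlap in control or in KO libraries. Bub1b was above 99.6% of tested genes on this scale in both groups. Zw10, Zwilch, Mad1l1 and Mad2l1 followed at 78.7 ± 19.2, 78.3 ± 12.6, 78.1 ± 12.2 and 72.6 ± 6.11, and their ranges overlapped. In KO libraries the per-length levels were 1085 ± 99.1 for Bub1b, 260 ± 19.5 for Ttk, 167 ± 29.1 for Bub1 and 97.4 ± 5.15 for Bub3. Zw10, at 91.6 ± 11.9, then stood above Mad1l1 at 69.7 ± 12.4, Zwilch at 56.3 ± 8.77 and Mad2l1 at 45.5 ± 4.04. The place of Mad2l1 rests on its annotation, since its longest transcript has 7557 bases and its shorter coding transcript 1725 bases. With the shorter transcript its per-length level was 318 ± 26.7 in control and 199 ± 17.7 in KO libraries, between Ttk and Bub1. With the union of all annotated exons as the length, Bub1b, Ttk and Bub1 kept the first 3 places in control, Mad2l1 became 4th, Bub3 5th, Zw10 6th and Zwilch 8th. In KO libraries Zw10, at 84.8, then stood above Bub3, at 69.1. The places below Ttk, that of Bub1 included, thus depend on the gene model.

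The reads counted for the members can in part belong to neighbouring genes, as the strand setting of the counting is not given in the sources used here. Bub3 lies opposite Fgfr2 without shared exon bases. Mad1l1 shares 37 exon bases with Gm16121 on the opposite strand, which had 0 counts in all control and 1 in all KO libraries together. Zwilch shares 254 exon bases with Lctl on the opposite strand. Lctl had 129 counts in all control and 90 counts in all KO libraries together, beside 9163 and 4396 counts of Zwilch.

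The 3′UTRs of the members differed in length and in elements. The longest annotated 3′UTR had 121 bases in Bub1, 272 in Bub1b, 321 in Ttk, 427 in Mad1l1, 453 in Zw10, 953 in Zwilch, 2439 in Bub3 and 6802 in Mad2l1, against a median of 1119 bases over 15125 tested genes. A CPE was found in 5 of the 8, with 7 copies in Mad2l1, 3 in Bub3, 2 in Bub1b, 2 in Ttk and 1 in Zwilch, and in 56.2% of all genes. Per kilobase, Bub1b held 7.35 and Ttk 6.23 CPEs, whereas Bub3, Zwilch and Mad2l1 held between 1.03 and 1.23, and the median gene 0.525. Bub1b was the only member with a CPE in the last 100 bases, where 14.8% of genes have one, and both of its copies lie there.

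The search covered the mRNA strand only, and elements may overlap each other. The Pumilio element TGTAAATA occurred once in Ttk and once in Bub3, and in 12.0% of genes. In Ttk it overlaps the last polyadenylation signal, AATAAA, and ends 25 bases before the annotated end. The AU-rich pentamer ATTTA, which can share bases with a CPE, occurred 18 times in Mad2l1, 15 times in Bub3, 2 times in Bub1 and once each in Zw10 and Zwilch, and in 69.8% of genes. It was not found in the letters of the Ttk, Bub1b and Mad1l1 3′UTRs.

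The 5 members with a CPE had log2 fold changes from -1.05 to -0.46 and the 3 without from -0.48 to -0.10, so the ranges met at their edges. Over all genes, the median log2 fold change was 0.098 for the 8503 genes with a CPE and -0.079 for the 6622 without, whose 3′UTRs are shorter, with a median of 537 against 1819 bases. With every annotated 3′UTR required to hold a CPE, only Bub1b and Ttk remained carriers. The shorter 3′UTR of Mad2l1 ends within the first of the sites found in the longer one, and holds no whole CPE. Which 3′UTR the oocytes use cannot be read from gene counts.

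**Figure D4:**
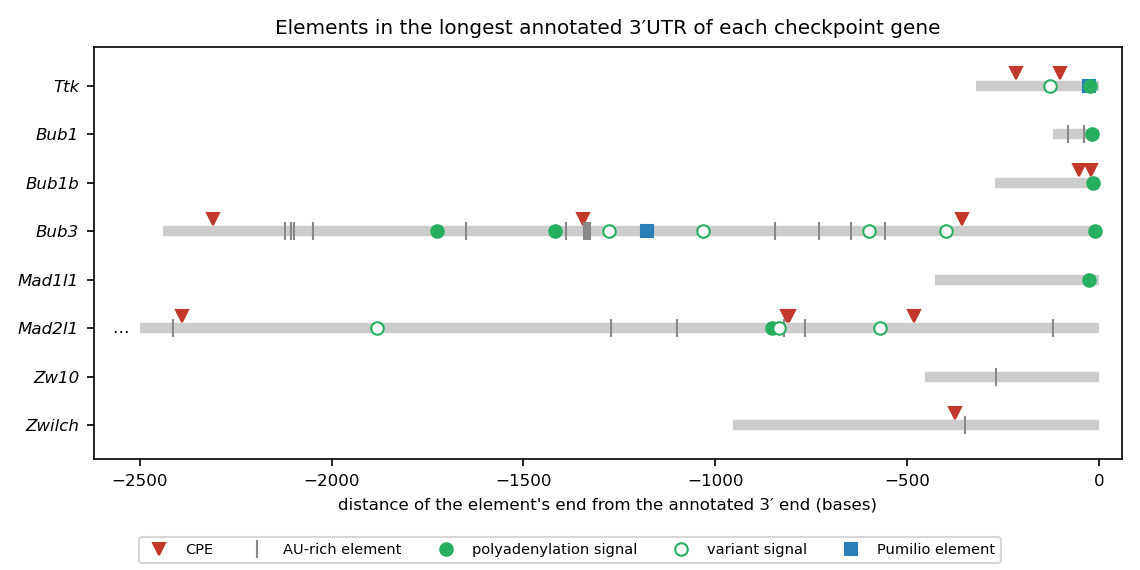
Position of elements in the longest annotated 3′UTR of each member, as the distance of the element's end from the annotated 3′ end in bases (x axis), with grey bars for the 3′UTR. Only the last 2500 bases of the Mad2l1 3′UTR are drawn. The CPEs of Bub1b lie next to the 3′ end, those of Ttk within 217 bases of it, and Bub1, Mad1l1 and Zw10 have none.

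Partner genes of the kinetochore and checkpoint moved in both directions. Of 26 listed partners, all tested, 14 fell, 3 rose and 9 did not pass, with a median log2 fold change of -0.50. Over all tested genes 24.1% fell and 31.2% rose, and among genes of at least 100 CPM 55.2% fell and 8.37% rose. With library size only, 9 partners fell and 8 rose, with TMM on genes of at least 10 CPM 11 fell and 8 rose, and without control replicate 1 those that rose numbered 6. In the outer kinetochore scaffold, which binds microtubules and carries the checkpoint proteins, 6 of 10 fell. Neither the 24.1% of all tested genes nor the 55.2% of abundant mRNAs is a close background for this list. Zwint, Nsl1, Pmf1, Spc24 and Spc25 averaged under 100 CPM in both groups, and the others averaged more. Dsn1, a subunit of the MIS12 complex, went from 310.3 CPM ± 22.4 to 209 CPM ± 9.03, a log2 fold change of -0.57 with an adjusted p of 0.000366 in edgeR's test. All 4 listed genes of the corona, the outermost layer of free kinetochores, fell, beside the 24.1% of all tested genes and 55.2% of abundant mRNAs that did. Cenpe, a kinesin that moves chromosomes to the spindle equator, fell from 552 CPM ± 98.1 to 253 CPM ± 32.3, a log2 fold change of -1.13 with an adjusted p of 3.61e-05 in edgeR's test. Spdl1, the Spindly protein that links RZZ to dynein, changed by -0.50 on the log2 scale (adjusted p of 0.000779 in edgeR's test). Kntc1, the third subunit of the RZZ complex, was named after its values were seen and changed by -0.67 (adjusted p of 0.00292 in edgeR's test), so in this complex Zwilch and Kntc1 fell.

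Of the 4 genes that act on the soluble checkpoint complex, 1 fell and 3 rose, beside the 24.1% and 31.2% of all tested genes that did. Cdc20, the activator of the anaphase-promoting complex that MAD2 and BUBR1 bind, measured 90.3, 95.8, 81.7 and 90.5 CPM in control libraries and 58.7, 49.3, 56.7 and 50.9 CPM in KO libraries. All KO libraries were lower, and the log2 fold change was -0.73 with an adjusted p of 0.000145 in edgeR's test. Mad2l1bp (p31comet) and Trip13, which together turn MAD2 back to its inactive form, were also named after their values were seen. Mad2l1bp went from 18.8 CPM ± 1.79 to 29.1 CPM ± 3.96 and Trip13 from 8.76 CPM ± 0.972 to 14.8 CPM ± 2.31, log2 fold changes of 0.64 and 0.76 with adjusted p of 0.00234 and 0.00204 in edgeR's test. Usp44, a deubiquitinase of Cdc20, rose from 0.669 CPM ± 0.257 to 2.04 CPM ± 0.755, a log2 fold change of 1.68 (SE 0.38, adjusted p of 0.00239 in edgeR's test), at levels near the detection limit.

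The remaining partners were mixed. Of the shugoshins, which guard centromere cohesion and are listed as Sgol1, Sgol2a and Sgol2b, 2 of 3 fell, beside the same 24.1% of all tested genes and 55.2% of abundant mRNAs. Sgol2b fell from 55.1 CPM ± 9.23 to 20.2 CPM ± 2.33, a log2 fold change of -1.45 with an adjusted p of 9.42e-06 in edgeR's test, the largest fall among the 26 partners. Sgol2a, the most abundant of them per length, had -0.028 with an adjusted p of 0.867 in edgeR's test. None of the 3 Ska genes, whose complex holds kinetochores on microtubules, passed, and the most abundant per length, Ska1, had -0.011 with an adjusted p of 0.937 in edgeR's test. Tpr, a nuclear pore anchor of MAD1, was the cofactor of 2 that fell, and Zfp207 (BuGZ), which binds Bub3, had -0.16 with an adjusted p of 0.204 in edgeR's test. Sgol2a, Ska1 and Zfp207 turned positive with library size only, at 0.26, 0.28 and 0.12, where Ska1 passed with an adjusted p of 0.0435 in edgeR's test.

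**Figure D5:**
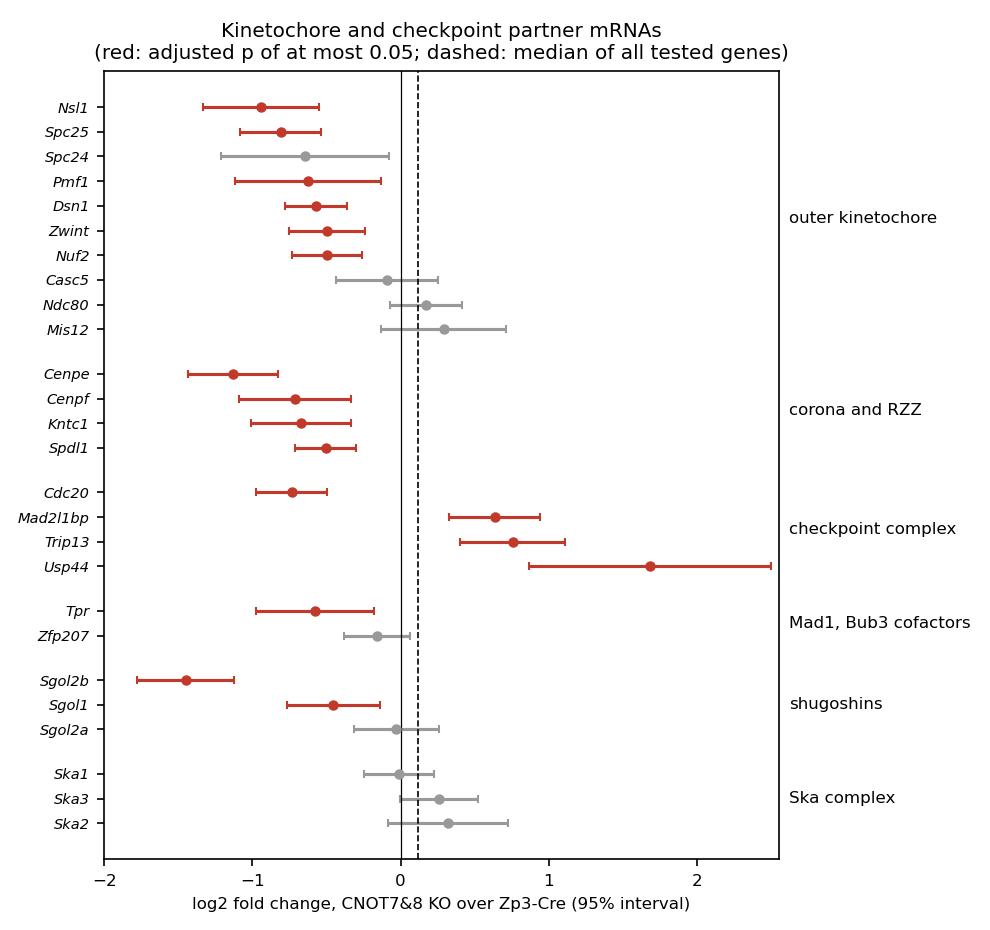
Log2 fold change of KO over control with its 95% interval (x axis) for the 26 partner genes, grouped by role. Red marks an adjusted p of at most 0.05, and the dashed line is the median of all tested genes, 0.12. All 4 corona genes lie left of 0, and Mad2l1bp, Trip13 and Usp44 are the red points right of 0.

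Of the 33 other genes of the member and partner lists, those whose log2 CPM followed Ttk most closely over the 8 libraries were Sgol2b (Pearson's r of 0.995), Dsn1 (0.993) and Mad2l1 (0.991). These values describe likeness only, since all 4 genes differ between the groups and the libraries share their scaling.

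The summed levels of marker lists differed between the groups. A list of 10 oocyte genes, among them the zona pellucida genes and Gdf9, summed to between 18236 and 20450 CPM in control libraries and between 14336 and 16890 CPM in KO libraries, and 6 fell, a share near the 55.2% of genes of at least 100 CPM that did. A list of 12 granulosa and cumulus genes summed to between 128 and 176 CPM in control libraries and between 240.3 and 302 CPM in KO libraries, with 6 higher, 1 lower and 4 not past the threshold among the 11 tested. Over all tested genes 31.2% were higher and 24.1% lower. The genes that rose were Ptgs2, from 2.94 to 36.7 CPM, Inha, from 6.86 to 25.9 CPM, Fshr, Kitl, Inhba and Nr5a2, and Cyp19a1, the aromatase gene, fell from 58.5 to 31.3 CPM. Foxl2, a defining gene of granulosa cells, had at most 1 count in any library, and Fshr averaged 1.29 CPM in control libraries and 3.87 CPM in KO libraries. The summed level of the 8 members fell from between 3302 and 3967 CPM to between 2327 and 2401 CPM. The part of these markers in the results on the members was not tested.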

How the data were processed

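The authors depleted ribosomal RNA and mapped reads to GRCm38 with STAR 2.6.1d (nf-core/rnaseq). The deposited table gives whole-number read counts for each gene and library, not normalized and not pooled. The labels name a stranded total RNA kit and the paper's methods a stranded mRNA kit. The counting tool, annotation release and strand setting are not given in the sources used here. Groups and replicate numbers came from the sample titles.

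Genes that reached 0.2 CPM in at least 2 libraries (19241 of 28353 with a count) were compared in R 4.3.3 with edgeR 4.0.16 (TMM, quasi-likelihood test, Benjamini-Hochberg adjustment over all tested genes), at an adjusted p of 0.05 and, where stated, a 2-fold change. Single values were compared with two-sided exact permutation tests over 70 assignments, and DESeq2 1.42.0 and the edgeR exact test were alternatives. Lengths, positions and 3′UTR sequences came from GENCODE vM21 (GRCm38), which held 98.0% of the gene identifiers. Scripts used Python 3.11.15, pandas 2.3.3 and matplotlib 3.10.9. Libraries of the same group differed by more than counting noise (lowest chi-square per degree of freedom 8.48).

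The members and gene lists were chosen with earlier results of these data known. Named genes were the members, Cnot7 and Cnot8, from each role group of the partners those past both thresholds and the most abundant per length, and the 3 genes most like a member past both thresholds.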

Additional observations from a re-analysis of the deposited data

Results flagged for a closer look

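In 8 of 56 groups of 4 values, a single library stood apart from the other 3 of its group by Dixon's test at the 95% level, where chance alone gives about 2.8. Of the members, Mad2l1 was at 111 CPM in KO replicate 3, against 125 to 126 CPM in the other KO libraries, and its log2 fold change ran from -1.03 to -0.93 when single libraries were left out. The ratio of Bub1 to Bub3 was 2.26 in control replicate 1, against 1.22 to 1.27 in the other controls. Cnot7 was at 1049 CPM in control replicate 1, against 886 to 900.2 CPM. Of the partners, Cenpe was at 699 CPM in control replicate 1, against 497 to 514 CPM, and Kntc1 at 196 CPM in the same library, against 132 to 142 CPM. Zfp207 was at 204 CPM in control replicate 2, against 217 to 219 CPM. In KO replicate 3, Mad2l1bp was at 35.0 CPM, against 26.6 to 27.4 CPM, and Sgol2b at 16.7 CPM, against 20.9 to 21.7 CPM. Control replicate 1, the deepest library, and KO replicate 3 held 7 of the 8 values.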

How the results depend on the processing

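The members that fell at an adjusted p of 0.05 numbered 7, but 3 with library size only and 4 with TMM on genes of at least 10 CPM, and 6 to 7 when single libraries were left out. The 1 member also past 2-fold, Ttk, became 0 with library size only, upper quartile scaling, TMM on genes of at least 10 CPM, at least 1 CPM in 4 libraries, and without control replicate 1 and KO replicate 4 together, and 0 to 2 when single libraries were left out, with 0 without control replicate 1 or KO replicate 3. Partners that fell (14) were 9 with library size only and 13 to 15 with a library left out. Partners that rose (3) were 8 with library size only, 5 with upper quartile scaling, 8 with TMM on genes of at least 10 CPM, 6 without control replicate 1 and KO replicate 4, and 3 to 6 with a library left out. Partners 2-fold lower (2) were 1, and those 2-fold higher (1) were 2, with library size only and with TMM on genes of at least 10 CPM, and 1 to 2 and 1 with a library left out. All tested genes that fell (4631) were 2618 with library size only and 2865 with TMM on genes of at least 10 CPM. The cause was not tested.

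With library size only and with TMM restricted to genes of at least 10 CPM, log2 fold changes and adjusted p were -0.20 (0.387) and -0.24 (0.330) for Mad1l1, -0.18 (0.234) and -0.21 (0.134) for Bub1, -0.18 (0.248) and -0.22 (0.194) for Bub3, and -0.092 (0.385) and -0.12 (0.216) for Cnot7, and -0.21 (0.0520) with the first for Bub1b, in edgeR's test. Mad1l1 was at -0.39 (0.0831) with upper quartile scaling, -0.41 (0.0692) with at least 1 CPM in 4 libraries, and from -0.60 to -0.34 with a library left out, where 2 of 8 fits passed. Zw10 turned to 0.19 with library size only, 0.0039 with upper quartile scaling, 0.16 with TMM on genes of at least 10 CPM and 0.017 without control replicate 1 and KO replicate 4, and ran from -0.18 to 0.059 with a library left out. Without control replicate 1 and KO replicate 4, Bub1 over Bub3 turned to 0.074 and Bub1b over Bub3 to 0.019, and they ran from -0.14 to 0.21 and from -0.12 to 0.11 with a library left out. Zfp207 turned to 0.12 and 0.088 with library size only and with TMM restricted to genes of at least 10 CPM. Sgol2a turned to 0.26 and 0.23 with these, 0.075 with upper quartile scaling, 0.043 with at least 1 CPM in 4 libraries and 0.035 without control replicate 1 and KO replicate 4, and ran from -0.084 to 0.083 with a library left out. Ska1 turned to 0.28 and 0.24 with the same scalings, 0.0018 with RLE, 0.088 with upper quartile scaling, 0.0077 without a filter, 0.059 with at least 1 CPM in 4 libraries and 0.0026 with DESeq2, and ran from -0.037 to 0.083 with a library left out. The 5 members with a CPE became 2 where every annotated 3′UTR had to hold one.

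Same-numbered control and KO libraries did not deviate together, with correlations from -0.12 to 0.11. The counts thus show no pairing by number, but with 4 libraries a group these correlations cannot exclude one. With the replicate number as a block, Mad1l1 had -0.49 with an adjusted p of 0.0525 in edgeR's test, and no other member changed its call. Control replicate 1 and KO replicate 4 had the highest correlation of any pair, 0.37, and were left out together for that reason. The number of libraries, 4 a group, limits the exact permutation tests to a smallest p of 0.0286.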
